A study of Mus musculus with 10 samples.

Results

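The genes described here are the Id genes Id1, Id2 and Id3 and 5 basic helix-loop-helix (bHLH) factors, Ahr, Bhlhe40, Tcf3, Tcf4 and Tcf12. They were picked out by gene symbol and make up 8 of the 54532 genes of the deposited count table. The list was drawn up with earlier results of these data known. All 8 had enough reads to be tested among 21414 genes. Of the 8, Id2 was the one called at an adjusted p below 0.05: it rose 15.1-fold in regulatory T cell (Treg) libraries from colon tumors over those from WT colon. Of all genes tested, 293 (1.37%) were called higher in Tumor and 47 (0.219%) lower. The Id2 call was lost in 5 of 10 fits that left out 1 library. Scaled to 14 T cell genes, which were also higher in Tumor libraries, Id2 had a log2 fold change of 0.75 ± 0.96 and was not called. Ahr and Bhlhe40 were higher in every Tumor library than in every WT library without passing that threshold. Id1 and Id3 had their highest values in WT replicates 1 and 2, which also held the most epithelial RNA.

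bHLH factors bind DNA as dimers, through a basic region, at short motifs called E boxes. The E proteins, encoded by Tcf3, Tcf4 and Tcf12, are such factors, and they direct lymphocyte development and restrain T cell activation. Id proteins have the dimerisation domain but no basic region, so an Id protein bound to an E protein keeps it off DNA. In T cells Id2 is known for effector and tissue programs and Id3 for naive and memory-like states, and both limit E proteins in Tregs. Ahr is a ligand-activated receptor that works with Arnt and senses dietary and microbial compounds in the gut. Bhlhe40 is a transcriptional repressor induced by T cell activation, and its close relative Bhlhe41 is also a clock gene. The Tcf3 and Tcf4 of this text are E proteins, not the Wnt pathway factors for which those names were once used.

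The Tumor group was 5 libraries of Tregs from colon tumors of Apc Min/+ Foxp3 DTR mice, and the WT group was 5 libraries of Tregs from the colon of Foxp3 DTR mice. Apc Min is a germline truncating allele, so Tregs and all other cells of the Tumor mice carried it, and both groups carried the Foxp3 DTR allele, in which the diphtheria toxin receptor is expressed from Foxp3. All mice were male C57BL/6, aged 16 weeks. Cells were sorted as CD45+CD3+CD4+CD25+GFP+ and sequenced by Smart-seq2, which reads full-length RNA from few cells. Nothing in the labels tells if each sample was its own animal or a pool of animals, and the p-values below therefore cover the variation from sample to sample, some of which may be technical.

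Libraries held 3054435 to 7747699 reads in Tumor and 1676229 to 8412887 in WT. Foxp3, the defining gene of Tregs, was read in all of them, at 36.9 to 148 CPM (reads of a gene over the scaled total of its library) in Tumor and 3.87 to 39.7 CPM in WT. The WT values rested on 14 to 109 reads, which do not by themselves show that a library was mostly Tregs. The part of background reads in them, a measure described below for the members, was not tested. The geometric mean of 14 T cell genes (Cd3e, Lck, Cd4 and others) was 234 to 539 CPM in Tumor and 13.9 to 94.7 CPM in WT, with no overlap. In bulk libraries fewer T cells and less RNA per T cell cannot be told apart. Other RNA differed as well. The summed level of 16 epithelial markers was 58.0 to 5130 CPM in Tumor and 32174 and 39531 CPM in WT replicates 1 and 2, against 166 to 218 CPM in the other WT libraries. The summed level of 12 macrophage and monocyte markers was 1442 to 6202 CPM in Tumor and 75.8 to 162 CPM in WT. A single transcript, Gm10800, took 0.844% to 5.77% of Tumor reads and 0.931% to 26.5% of WT reads. The part of these differences in the results below was not tested, and results that rest on WT replicates 1 and 2 are given with and without them.

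Id2 was the main Id gene of the Tumor libraries. It is a short gene on mm10 chromosome 12 (chr12:25093799-25097140, minus strand), with no other annotated gene overlapping it. It was read at 1751, 2210.4, 2219, 1941 and 948 CPM in Tumor replicates 1 to 5, from 4132 reads or more in each. In WT replicates 1 to 5 it was read at 78.6, 111, 123, 255 and 33.6 CPM, from 74 to 806 reads. The lowest Tumor library lay above the highest WT library. Among all genes by CPM it ranked 23 to 93 in Tumor libraries and 140 to 3765 in WT libraries. The log2 fold change, Tumor over WT, was 3.91 ± 0.79 (SE, n = 5 and 5), with an adjusted p of 0.0181 from edgeR's quasi-likelihood test. The call was lost when Tumor replicate 1, 2, 3 or 4 or WT replicate 1 was left out, with adjusted p between 0.0107 and 0.0744 over the 10 such fits and a log2 fold change of 3.68 to 4.41. Measured against the 14 T cell genes in place of all genes, it was 0.75 ± 0.96 with an adjusted p of 0.444. With WT replicates 1 and 2 also left out, that scaling called Id2 higher, in a fit with 57 of 25230 genes called higher. By the usual scaling with a background proportional to gene length subtracted, the log2 fold change was 3.10 with an adjusted p of 0.205. By the T cell gene scaling the median of all genes was -3.70, against -0.20 by the usual scaling, so Id2 stood far above the median gene on both scales and close to T cell genes.

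**Figure D1:**
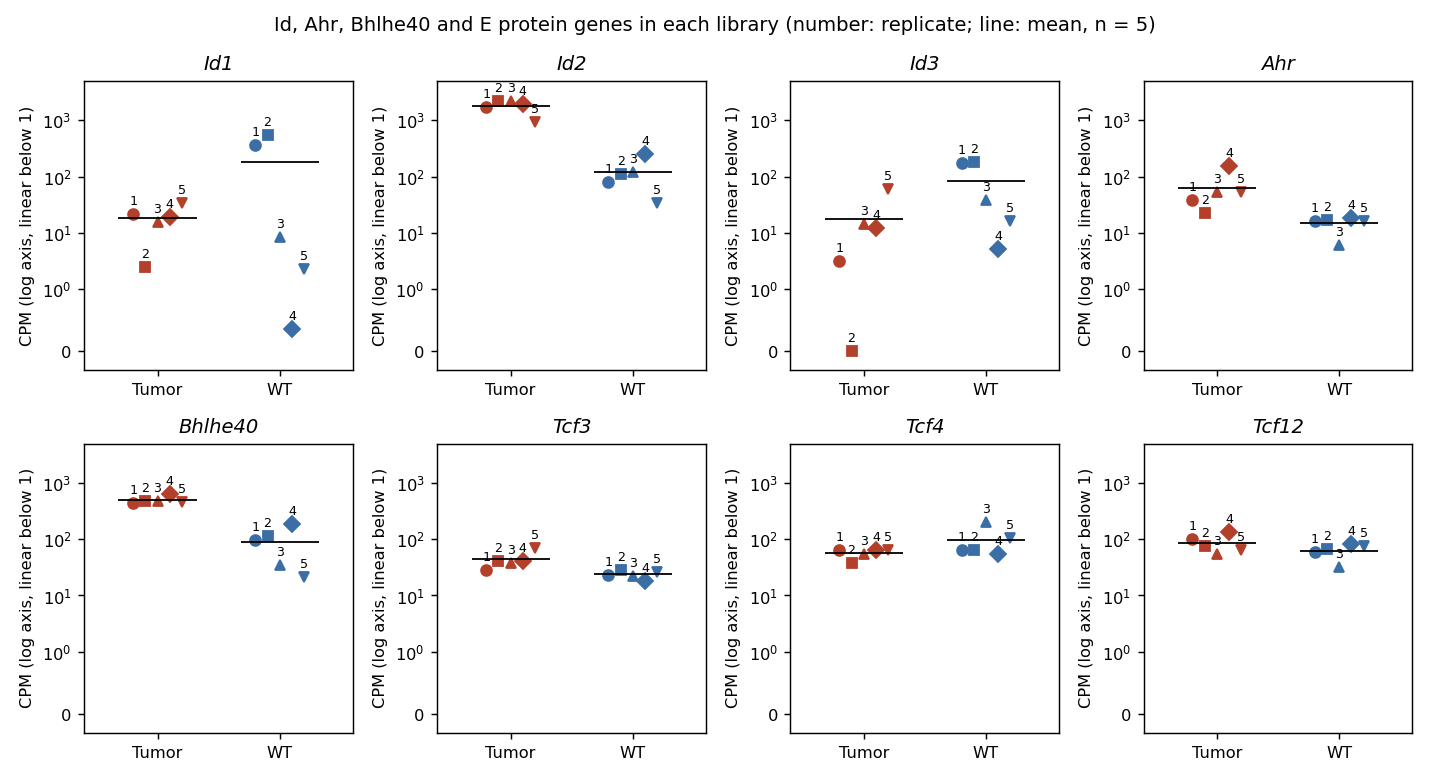
Level of each of the 8 genes in every library (y axis, CPM, log axis above 1 and linear below 1), with Tumor libraries left of WT libraries in each panel, points numbered by replicate and a line at the group mean. Id2, Ahr, Bhlhe40 and Tcf3 have every Tumor point above every WT point, and the highest Id1 and Id3 points are WT replicates 1 and 2.

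Id3, the other Id gene with known roles in Tregs, ran the opposite way to Id2. It lies on chromosome 4 (chr4:136143497-136145755, plus strand). Tumor replicates 1 to 5 held 3.09, 0, 14.1, 12.1 and 59.9 CPM, and the Tumor 2 value of 0 reads allows up to 1.24 CPM by counting error (3 reads). WT replicates 1 to 5 held 171, 184, 38.5, 5.10 and 16.3 CPM, so the groups overlapped. Tumor over WT, Id3 stood at a log2 fold change of -2.21 ± 1.10 with an adjusted p of 0.337. Leaving out WT replicates 1 and 2 brought it to -0.14, so the size of the difference came from those libraries. Id3 was not called by the main scaling. When scaled to T cell genes it was at -5.82 (adjusted p = 0.00122), a scaling by which 91.4% of all genes tested were called lower.

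Id1 is induced by BMP signals in many cell types, epithelium among them. It lies at chr2:152736251-152737410 on the plus strand. Its levels in Tumor replicates 1 to 5 were 21.9, 2.49, 15.3, 18.8 and 33.7 CPM. In WT replicates 1 to 5 they were 368, 546, 8.45, 0.364 and 2.27 CPM. The WT values therefore fell into a high pair and a low remainder, which straddled the Tumor values and followed the epithelial markers in the same libraries. The log2 fold change was -3.32 ± 1.38 with an unadjusted p of 0.0303 and an adjusted p of 0.259. Without WT replicates 1 and 2 it turned to 2.37 (adjusted p = 0.214), and without WT replicates 3, 4 and 5 it was -4.64 (adjusted p = 1.08e-05). The direction of Id1 was thus set by which WT libraries were counted. In those fits 6.40% of genes were called higher without WT replicates 1 and 2, and 2.32% higher and 2.09% lower without WT replicates 3, 4 and 5.

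The promoter windows of Id2 and Id3 are shown because the ratio of these genes within libraries is compared next. Each window is 300 bases from RefSeq (GRCm38.p6, the assembly of mm10), 5′ to 3′ on the strand of the gene, with 250 bases before the start and 50 after it. Capitals mark E boxes (CANNTG). The Id2 window is chr12:25096043-25096342 on the minus strand and the Id3 window is chr4:136143572-136143871 on the plus strand.
Id2: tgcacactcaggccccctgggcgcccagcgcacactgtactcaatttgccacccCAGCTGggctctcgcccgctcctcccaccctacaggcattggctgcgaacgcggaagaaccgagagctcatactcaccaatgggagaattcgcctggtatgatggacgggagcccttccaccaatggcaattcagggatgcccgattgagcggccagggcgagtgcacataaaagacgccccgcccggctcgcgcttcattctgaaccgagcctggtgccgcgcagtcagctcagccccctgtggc
Id3: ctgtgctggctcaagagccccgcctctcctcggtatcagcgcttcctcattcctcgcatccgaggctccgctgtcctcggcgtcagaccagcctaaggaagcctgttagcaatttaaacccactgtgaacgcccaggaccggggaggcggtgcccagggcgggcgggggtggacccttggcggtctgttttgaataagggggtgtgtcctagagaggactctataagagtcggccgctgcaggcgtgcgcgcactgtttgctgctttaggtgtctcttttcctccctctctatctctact
Both windows lie inside the spans the deposited table gives for these genes. The Id2 window held 1 E box, the CAGCTG form, and no Ahr core motif (GCGTG). The E box starts at position -196 from the RefSeq start used for the window, which is inside the deposited span of Id2. The Id3 window held no E box and 1 GCGTG. Both strands were searched. Over all 32851 RefSeq mouse promoter windows of this length, 72.3% held CANNTG, 16.3% held CAGCTG and 32.4% held GCGTG, so these matches are common and describe the letters only. Of the 8 genes, 4 had a RefSeq promoter entry.

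Within a library, the ratio of reads of a pair of genes does not depend on how the library is scaled. The log2 ratio of Id2 over Id3 reads was 9.08, 13.4, 7.29, 7.32 and 3.98 in Tumor replicates 1 to 5, against -1.12, -0.72, 1.66, 5.60 and 1.03 in WT replicates 1 to 5. WT 4 lay above Tumor 5, and the other Tumor libraries lay above every WT library. Means were 8.21 ± 3.43 in Tumor and 1.29 ± 2.67 in WT (SD, n = 5 each), a difference of 6.92 on the log2 scale (exact permutation test, 2-sided, p = 0.0159, adjusted p = 0.0397 over 5 ratios). The Tumor 2 ratio rests on 0 Id3 reads and on the pseudocount of 0.5 reads. Without WT replicates 1 and 2 the difference was 5.45 (exact permutation test, adjusted p = 0.119, with 3 WT libraries left). The smallest p that the test allows is larger with fewer libraries.

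Per kilobase of gene, Id2 made up 97.2%, 99.8%, 97.7%, 97.2% and 86.2% of the Id1, Id2 and Id3 reads in Tumor replicates 1 to 5. In WT replicates 1 to 5 its share was 7.25%, 7.38%, 63.6%, 97.1% and 55.4%. Id1 held 0.236% to 6.44% in Tumor, 71.3% and 76.0% in WT replicates 1 and 2, and at most 9.22% in the other WT libraries. Id3 held 0% to 7.41% in Tumor and 2.64% to 36.7% in WT. WT 4, in which Id2 had its highest WT level and Foxp3 its highest WT level, resembled the Tumor libraries in make-up.

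**Figure D2:**
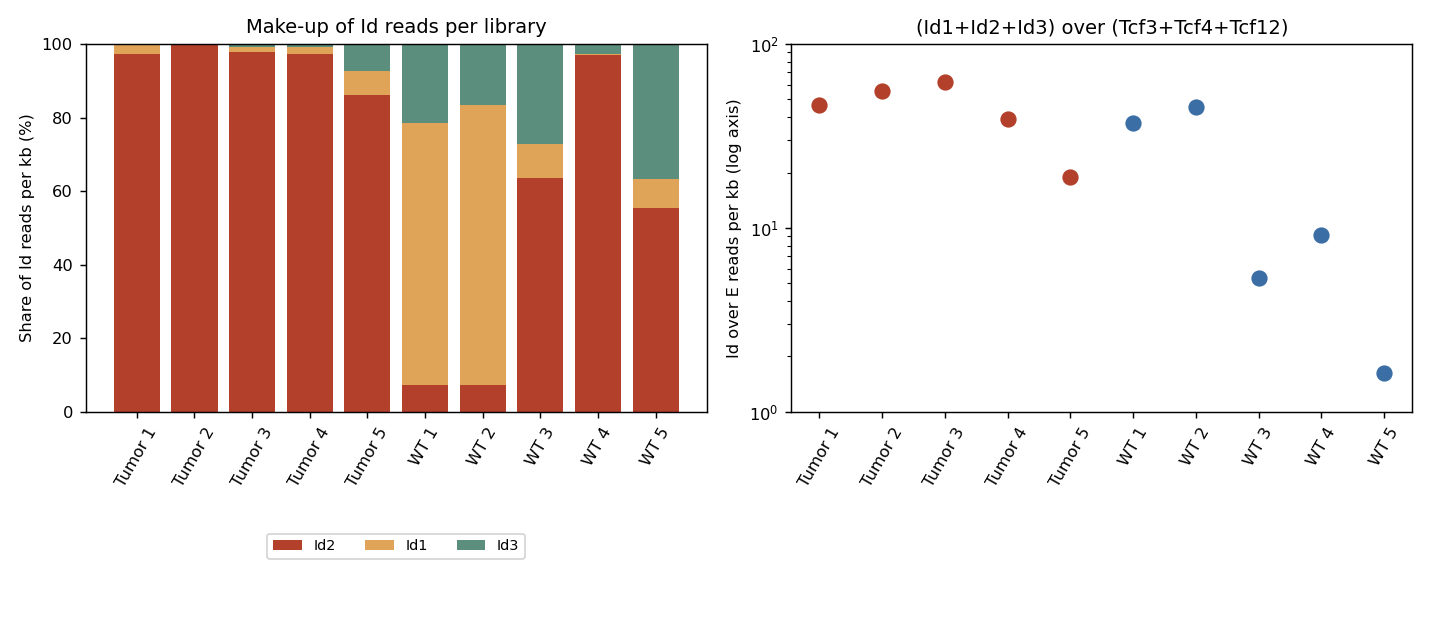
Make-up of the Id reads (left, share in percent of Id1, Id2 and Id3 reads per kilobase) and the summed Id reads over the summed Tcf3, Tcf4 and Tcf12 reads per kilobase (right, log axis) in each library, Tumor left of WT. Id2 fills 86.2% or more of every Tumor bar, and the right panel shows WT replicates 1 and 2 among the Tumor values.

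The balance of Id over E protein transcripts in a library overlapped between the groups. Summed reads per kilobase of Id1, Id2 and Id3 over those of Tcf3, Tcf4 and Tcf12 gave 46.6, 55.3, 61.8, 39.2 and 18.9 in Tumor replicates 1 to 5. The WT ratios were 37.2, 45.3, 5.34, 9.17 and 1.63. In WT replicates 1 and 2 the ratio was as high as in Tumor libraries, through Id1 and Id3. Those libraries also held the most epithelial RNA, so the ratio is that of the whole library and not of Tregs alone. In the other WT libraries it was below all Tumor ratios. The ratio is given as a description with no test. It uses deposited gene lengths, 15529 bases for Tcf12 and 27382 for Tcf4, against 1160 to 2438 for the Id genes. Where the transcripts present are shorter than that length, reads per kilobase come out too low. The effect on the ratio was not tested.

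None of the E protein genes was called. Tcf3, which encodes the E protein first known from B cell development, lies at chr10:80409514-80433647 (minus strand). It was read at 28.9, 41.0, 38.3, 40.5 and 69.7 CPM in Tumor replicates 1 to 5, against 23.4, 28.6, 22.1, 18.2 and 26.3 CPM in WT replicates 1 to 5. Tumor 1 exceeded the highest WT library, WT 2, by little, so the groups did not overlap but nearly met. Its log2 fold change was 0.88 ± 0.48 with an adjusted p of 0.369. Scaled to T cell genes it was -2.62 (adjusted p = 0.00641), the opposite direction.

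Tcf12, which encodes HEB, an E protein of thymocytes, lies at chr9:71842688-72111871 (minus strand). Its levels were 99.2, 75.8, 55.7, 132 and 65.4 CPM in Tumor and 58.5, 66.2, 31.5, 81.5 and 75.3 CPM in WT, replicates 1 to 5 in each. The groups overlapped, and the log2 fold change was 0.45 ± 0.48 with an adjusted p of 0.661. It turned to -3.09 (adjusted p = 0.00239) by the T cell gene scaling. The annotation places 11 small genes within its span, pseudogenes and a microRNA gene among them, and how reads in shared stretches were counted is not given in the sources used here.

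Tcf4, the E protein of plasmacytoid dendritic cells, lies at chr18:69343356-69689079 (plus strand). Tumor replicates 1 to 5 held 63.5, 38.1, 54.4, 63.9 and 65.6 CPM, and WT replicates 1 to 5 held 65.3, 63.3, 199.99, 55.0 and 107 CPM. WT 3 and WT 5 stood above every Tumor library, and the other WT libraries overlapped the Tumor libraries. Its log2 fold change was -0.78 ± 0.51 with an adjusted p of 0.455, and -4.14 (adjusted p = 0.000736) by the T cell gene scaling. The plasmacytoid dendritic marker list summed to 146 to 424 CPM in Tumor, 2311 and 3416 CPM in WT replicates 1 and 2, and 50.3 to 169 CPM in the other WT libraries. A single gene of that list, Klk1, reached 3357 CPM in WT, so the sum says little of these cells. Siglech, the defining marker, was at most at 12.1 CPM in Tumor and 12.6 CPM in WT, and the part of such cells in the Tcf4 values was not tested.

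The read density of Tcf4 was close to that of genes not expected in T cells. Over 1464 olfactory and vomeronasal receptor genes, the density was 1.05 to 2.02 CPM per kilobase in Tumor and 1.22 to 4.19 CPM per kilobase in WT. Tcf4, with 27382 bases counted, stood at 0.860 to 1.89 times that density in Tumor and 0.878 to 1.90 times in WT. The annotation gives Tcf4 62 transcripts, and those present may be shorter than the length used, which would lower its density. The effect of that length was not tested, so a density near that of receptor genes does not show that Tcf4 was absent. Tcf12 stood at 2.08 to 6.29 times in Tumor and 0.483 to 3.50 times in WT, and Tcf3 at 3.56 to 9.02 times in Tumor and 1.30 to 5.81 times in WT. Id2, at 192 to 865 times in Tumor and 4.001 to 45.8 times in WT, was above it in every library. Bhlhe40 was at 46.7 to 99.1 times in Tumor and 1.32 to 19.6 times in WT. Ahr was at 2.24 to 18.3 times in Tumor and 0.236 to 2.28 times in WT, so in WT libraries its reads were no denser than those of receptor genes in 2 of 5. The part of such reads in the E protein and Ahr values was not tested.

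**Figure D3:**
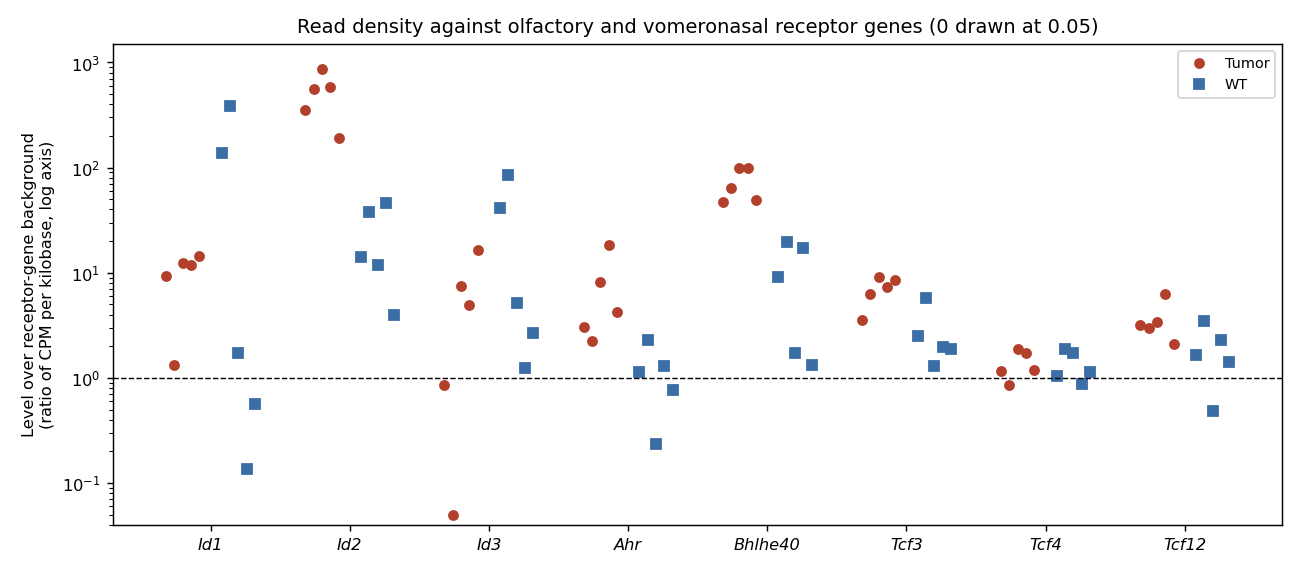
Read density of each gene over that of 1464 olfactory and vomeronasal receptor genes in the same library (y axis, ratio on a log axis, the dashed line at 1 marks equal density, a value of 0 is drawn at 0.05), Tumor left of WT. Tcf4 lies near the line in both groups, and Id2 lies above it in every library.

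As shares of E protein reads per kilobase, Tcf4 took 8.47% to 14.6% in Tumor and 16.9% to 49.4% in WT, with no overlap. Tcf4 was near the receptor gene density in both groups, and the median of that density was 1.62 CPM per kilobase in Tumor and 2.29 in WT. The part of such reads in the Tcf4 share was not tested. Tcf3 took 45.1% to 72.3% in Tumor and 36.9% to 51.9% in WT. Tcf12 took 17.6% to 40.8% in Tumor and 13.7% to 44.6% in WT. The log2 ratio of Tcf4 over Tcf12 reads averaged -0.54 ± 0.51 in Tumor and 0.54 ± 1.25 in WT (exact permutation test, p = 0.0635, adjusted p = 0.0794). That of Tcf12 over Tcf3 averaged 0.96 ± 0.79 in Tumor and 1.34 ± 0.59 in WT (exact permutation test, p = 0.413, adjusted p = 0.413). Neither ratio passed the threshold, with differences of -1.08 and -0.38 on the log2 scale.

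Ahr lies at chr12:35497974-35535038 (minus strand). It was read at 37.9, 22.4, 53.1, 153 and 52.3 CPM in Tumor replicates 1 to 5, from 54 to 860 reads. WT replicates 1 to 5 held 15.9, 17.1, 6.10, 18.2 and 16.3 CPM, from 13 to 124 reads. Every Tumor library was above every WT library, Tumor 4 stood highest and WT 3 lowest. The log2 fold change was 2.11 ± 0.58 (4.31-fold), with an unadjusted p of 0.00167 and an adjusted p of 0.0730. Ahr was therefore not called, and by the T cell gene scaling it was at -1.48 (adjusted p = 0.114), the opposite direction. Without WT replicates 1 and 2, where 6.40% of genes were called higher, the log2 fold change was 2.25 with an adjusted p of 0.0456, and with DESeq2, by which 3.18% of genes were called higher, it was 1.94 with an adjusted p of 0.0226. With no filter on low counts it was 2.29 with an adjusted p of 0.0437, and it was not called in the other alternatives, apart from a lower call by the T cell gene scaling without WT replicates 3, 4 and 5 (-2.05). Gm48236, a long noncoding RNA gene on the other strand, overlaps Ahr and held 655 reads over the Tumor libraries and 241 over the WT libraries, and without strand such reads cannot be told apart.

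Arnt, the partner with which Ahr binds DNA, was read at 37.5 ± 10.5 CPM in Tumor and 40.2 ± 15.8 CPM in WT (log2 fold change -0.10 ± 0.48, adjusted p = 0.937). The log2 ratio of Ahr over Arnt reads was -0.41, -0.17, 0.46, 1.77 and 0.86 in Tumor replicates 1 to 5. It was -0.54, -1.01, -3.33, -0.79 and -1.54 in WT replicates 1 to 5, so every Tumor ratio was above every WT ratio. The means were 0.50 ± 0.87 in Tumor and -1.44 ± 1.12 in WT, a difference of 1.95. The exact permutation test gave p = 0.00794, the smallest that 5 against 5 libraries allow, and an adjusted p of 0.0397 over 5 ratios. This difference does not rest on library scaling. It may still depend on the share of T cell RNA and of other RNA in a library, and that part was not tested. The lowest Tumor ratio, that of replicate 1, was close to the highest WT ratio, also of replicate 1, and the receptor gene density above bears on the WT values.

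**Figure D4:**
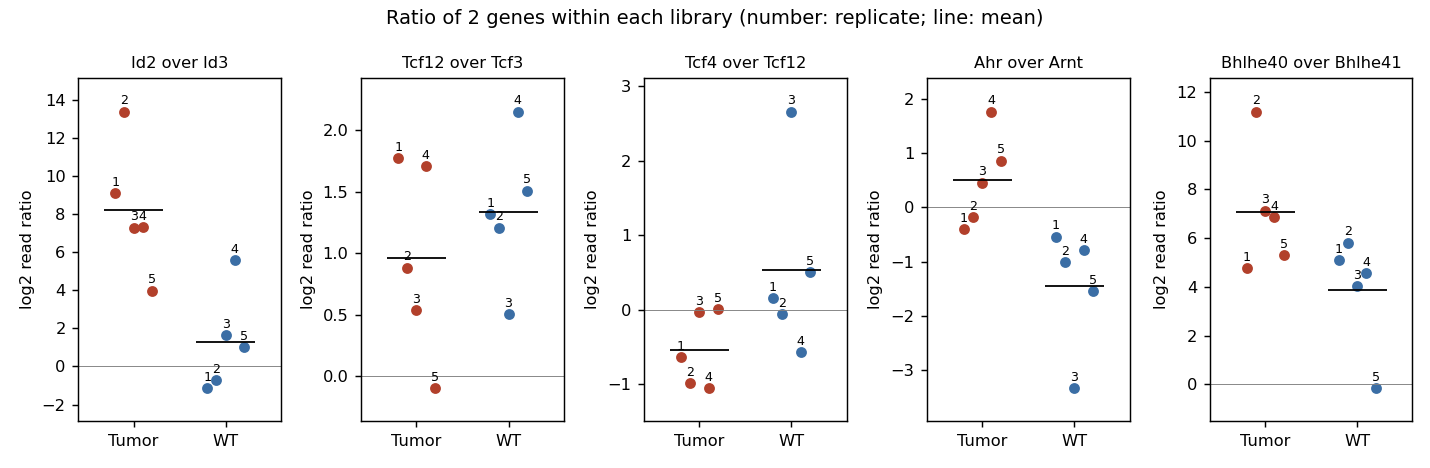
Log2 ratio of the reads of a pair of genes within each library (y axis, pseudocount of 0.5 reads), Tumor left of WT, points numbered by replicate and a line at the mean. Every Ahr over Arnt point of Tumor is above every WT point, while Id2 over Id3 overlaps through Tumor 5 and WT 4.

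Bhlhe40 lies at chr6:108660629-108666925 (plus strand). Tumor replicates 1 to 5 held 442, 483, 486, 632 and 465 CPM, and WT replicates 1 to 5 held 98.8, 112, 34.3, 186 and 21.3 CPM. The groups did not overlap, with Tumor 4 and WT 4 the highest of each. The log2 fold change was 2.47 ± 0.69 (5.54-fold), with an unadjusted p of 0.00193 and an adjusted p of 0.0797. It was called higher in 6 alternatives, given here with the genes called higher over the whole table. These were DESeq2 (adjusted p = 0.00238, with 3.18% of genes called higher), limma voom (adjusted p = 0.0165, 455 of 21414 genes), and no filter on low counts (adjusted p = 0.0356, 479 of 51296 genes). The others were leaving out WT replicate 4 (adjusted p = 0.0472, 345 of 22681 genes), WT replicates 1 and 2 (adjusted p = 0.0315, 6.40%), and WT replicates 3, 4 and 5 (adjusted p = 0.00194, 2.32%). By the T cell gene scaling it was -0.88 (adjusted p = 0.338), the opposite direction, and without WT replicates 3, 4 and 5 that scaling called it lower (-1.76).

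Bhlhe41, the relative that shares its DNA motif, was read at 7.29 CPM in Tumor and 7.57 CPM in WT (log2 fold change -0.04 ± 1.05, adjusted p = 0.989). The log2 ratio of Bhlhe40 over Bhlhe41 reads averaged 7.05 ± 2.52 in Tumor and 3.87 ± 2.34 in WT. The exact permutation test of that difference, 3.18, gave p = 0.0476 and an adjusted p of 0.0794, which misses the threshold. The ratio was above 0 in all Tumor libraries and in 4 of 5 WT libraries, with WT 5 at -0.14.

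Of the 8 genes, 4 (Id2, Ahr, Bhlhe40 and Tcf3) had every Tumor library above every WT library, against 4.38% of all genes tested. The 14 T cell genes and the macrophage and monocyte list were also higher in Tumor libraries, as given above. When all 10 libraries were scaled to the T cell genes, none of the 8 was called higher. In that fit Id1, Id3, Tcf3, Tcf4 and Tcf12 were called lower, as 91.4% of all genes were. Id2, Bhlhe40 and Ahr were the members not called lower, and Id2 was the one that kept a positive value. By the same scaling without WT replicates 1 and 2, Id2 was called higher, in a fit with 57 of 25230 genes called higher. Tcf3, Tcf4 and Tcf12 were called lower there, with 14798 genes called lower.

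**Figure D5:**
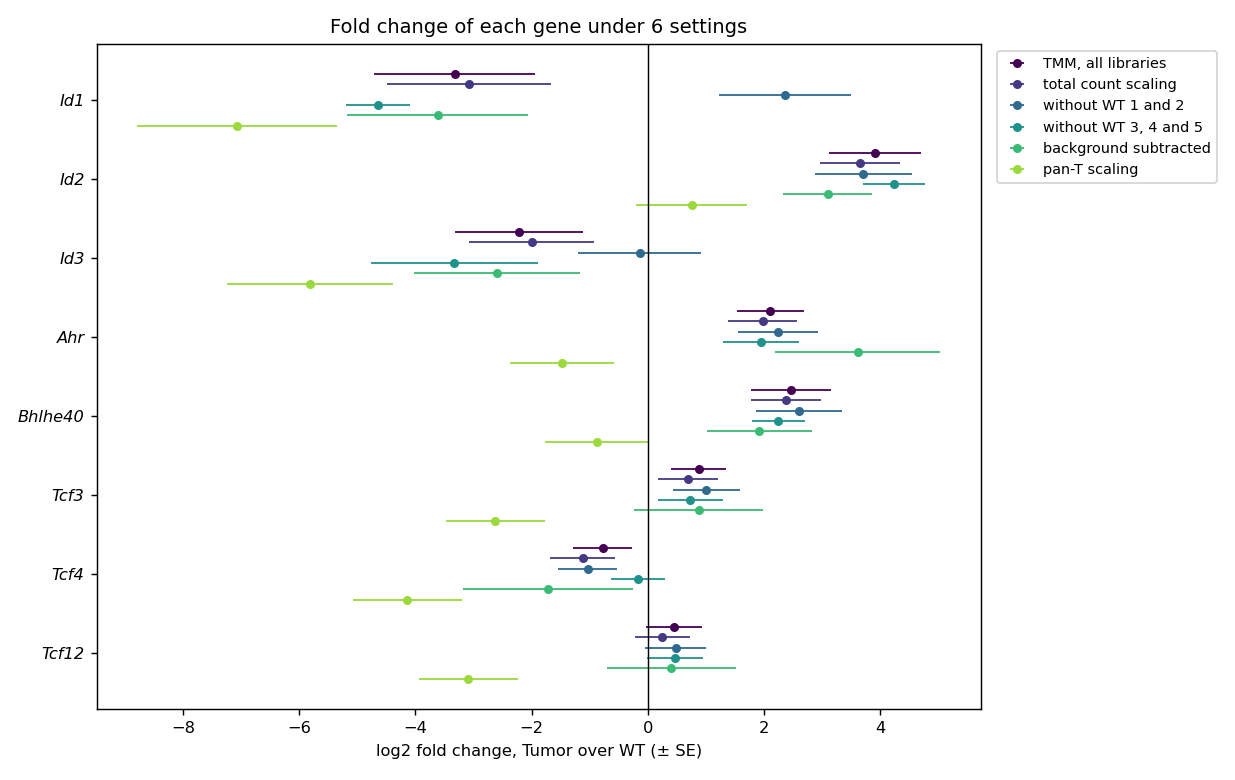
Log2 fold change, Tumor over WT, of each gene (x axis, points) with its standard error (bars) under 6 settings (colors): the usual TMM scaling, total count scaling, leaving out WT replicates 1 and 2 or WT replicates 3, 4 and 5, subtracting a background proportional to gene length, and scaling to the 14 T cell genes (pan-T). Id2 lies above 0 in all of them, Ahr, Bhlhe40, Tcf3 and Tcf12 change side by the T cell gene scaling, and Id1 changes side without WT replicates 1 and 2.

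Compared per kilobase of gene, the order of median levels in Tumor was Id2 at 796 CPM per kilobase, Bhlhe40 at 103, Id1 at 16.2, Tcf3 at 10.02, Ahr at 8.49, Id3 at 6.74, Tcf12 at 4.88 and Tcf4 at 2.32. Id2 did not overlap Bhlhe40, Bhlhe40 did not overlap Id1, and Tcf12 did not overlap Tcf4, while the other neighbours did. In WT the order was Id2 at 45.7 CPM per kilobase, Id3 at 21.5, Bhlhe40 at 21.0, Id1 at 7.28, Tcf3 at 5.79, Tcf12 at 4.26, Ahr at 2.65 and Tcf4 at 2.38. All neighbours in the WT order overlapped. These levels use the deposited gene lengths, so the places of Tcf4 and Tcf12, with 62 and 21 annotated transcripts, may depend on the length used.

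Genes around these factors were read from lists by pathway. Of 13 tested partners and cofactors of E proteins (Id4, Lyl1, Lmo2, Ep300 and others) 0 were called. That is near the share of all genes tested, 1.37% called higher and 0.219% lower. Their median log2 fold change was -0.02 against -0.20 for all genes tested. Crebbp, a coactivator of E proteins and the most abundant of them, was at 136 CPM in Tumor and 89.6 CPM in WT (0.60 ± 0.50, adjusted p = 0.568). Ldb1, which bridges bHLH and LMO proteins, was at 106 CPM in Tumor and 26.7 CPM in WT without overlap (1.99 ± 0.54, adjusted p = 0.0730). It was singled out after its values were seen.

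Among 17 tested genes reported as E protein targets in lymphocytes, 3 rose and 0 fell, where 1.37% of all genes tested were called higher and 0.219% lower. Of the 14 T cell genes, 7 were called higher and 0 lower. The median log2 fold change of the list was 0.84, against -0.20 for all genes tested and 2.86 for the 14 T cell genes. Il7r, the interleukin-7 receptor chain, was at 964 ± 344 CPM in Tumor and 52.1 ± 47.8 CPM in WT (log2 fold change 4.21 ± 0.85, adjusted p = 0.0186). Socs1 and Socs3 encode inhibitors of cytokine signalling. Socs1 rose to 49.5 ± 24.8 CPM in Tumor, against 4.33 ± 1.73 CPM in WT (3.49 ± 0.62, adjusted p = 0.00842), and Socs3 to 90.3 ± 27.7 CPM in Tumor, against 14.2 ± 12.9 CPM in WT (2.68 ± 0.59, adjusted p = 0.0282). By the T cell gene scaling Il7r was at 1.43, Socs1 at -0.20 and Socs3 at -0.41, none called. Without 1 library at a time, 0 to 3 of the list were called. Rag1 and Dntt, which act in antigen receptor assembly, were at low levels, 4.21 and 1.75 CPM in Tumor and 20.8 and 20.1 CPM in WT.

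Of 13 tested Ahr partners and target genes, 2 rose and 0 fell, with a median of 1.29. The shares and medians of all genes and of T cell genes, 7 of 14 called higher, are those given above. Gpr15, a receptor that guides T cells to the colon and a known Ahr target, was at 32.7 ± 15.3 CPM in Tumor and 1.58 ± 1.73 CPM in WT (4.31 ± 0.91, adjusted p = 0.0224), with Tumor 5 lowest of its group at 7.34 CPM. Asb2, part of a ubiquitin ligase, was at 143 ± 27.0 CPM in Tumor and 17.6 ± 8.93 CPM in WT (3.02 ± 0.55, adjusted p = 0.0100). By the T cell gene scaling Gpr15 was at 1.29 and Asb2 at -0.43, neither called, and without 1 library at a time 0 to 3 of the list were called. The classical Ahr targets named next differed in direction, and none was called. Cyp1a1 and Cyp1b1, xenobiotic-metabolising enzymes, were at 4.01 and 4.35 CPM in Tumor and 7.18 and 4.51 CPM in WT. Ahrr, the repressor that Ahr induces, was at 10.6 ± 7.16 CPM in Tumor and 34.6 ± 38.0 CPM in WT (-1.69, adjusted p = 0.270). Its WT median was 19.1 CPM, with the highest WT library at 102 CPM. Tiparp, another target, was at 47.5 CPM in Tumor and 19.2 CPM in WT (1.29, adjusted p = 0.339). At these low levels the part of background reads, as described for Ahr, was not tested. Hsp90ab1, the chaperone that holds Ahr in the cytoplasm and the most abundant gene of the list, was at 1875 CPM in Tumor and 682 CPM in WT (1.46 ± 0.79, adjusted p = 0.371).

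None of 18 clock genes, 29 other bHLH factors or 23 BMP, TGF-beta and Egr genes that act on Id genes was called. Of all genes tested 1.37% were called higher and 0.219% lower, so 0 calls in lists of this size is near that share. Their median log2 fold changes were -0.26, 0.42 and 0.20. At an unadjusted p below 0.05, 3439 of the 21414 genes passed. Hif1a, the hypoxia-responsive bHLH factor that also uses Arnt, was at 821 to 1558 CPM in 4 Tumor libraries and 446 CPM in Tumor 5, against 61.7 to 223 CPM in WT, with no overlap (2.64 ± 0.69, adjusted p = 0.0605). Rora, a nuclear receptor that drives clock genes, was at 408 CPM in Tumor and 110.2 CPM in WT (1.89 ± 0.71, adjusted p = 0.203). Egr1, which induces Id genes after receptor signals in thymocytes, was at 156 CPM in Tumor and 136 CPM in WT (0.20 ± 0.80, adjusted p = 0.923). By the T cell gene scaling the medians of all 6 lists lay between -3.74 and -2.45, against -3.70 for all genes.

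The genes most like each member across the 10 libraries were found by the root mean square difference of centred log2 CPM over 12202 genes. This describes these libraries, which share depth and RNA of other cells. Nearest to Id2 were Tmem123 (0.34) and Gpr183 (0.36), a receptor for oxysterols that positions lymphocytes, against a median of 2.31 over all genes compared. Gpr183 was at 246 to 458.4 CPM in Tumor and 12.6 to 56.8 CPM in WT. Nearest to Id3 were Jup (0.54), which encodes plakoglobin of cell junctions, and Ap1m2 (0.62), a subunit of an epithelial sorting adaptor. Nearest to Id1 was Cbr1 (0.56), an enzyme of carbonyl metabolism, at 4.14 to 49.8 CPM in Tumor and at 362 and 550.4 CPM in WT replicates 1 and 2. Bhlhe40 was nearest to Atp1b3 (0.28), a sodium pump subunit, and Ahr to Golga7 (0.51). Nearest to the E proteins were Plekhm3 (0.26) for Tcf3, Smarcad1 (0.25) for Tcf4 and Ikbkap (0.29) for Tcf12.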

How the data were processed

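Sorted Treg RNA was measured by Smart-seq2 in 10 libraries, 5 Tumor and 5 WT, grouped by their titles. The authors deposited raw counts, whole numbers of reads per gene. HISAT2 2.0.5, featureCounts 1.5.0-p3 and build mm10 are named in the submitters' processing notes. Annotation release, strand setting and handling of multiply mapped reads are not given in the sources used here. Transposase-made libraries carry no molecular identifiers, so counting limits cover counting error only. The single-sample tables held the same values as the series table. Each of the 45 pairs of libraries differed by more than sampling noise, with chi-square at least 29.8 times its degrees of freedom.

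Counts were tested in R 4.3.3 with edgeR 4.0.16 (filterByExpr, minimum count 10, TMM, robust quasi-likelihood F test, 2-sided, group as the only term), with Benjamini-Hochberg adjustment over 21414 genes and a threshold of 0.05. Dispersion was 0.742 in common, or 86.1% as biological coefficient of variation. SE is the log2 fold change over the square root of F, and CPM is TMM scaled. The T cell gene scaling divides by the geometric mean of counts plus 0.5 over 14 T cell genes. Ratios within libraries were tested by exact permutation (SciPy 1.17.1). The fit was tested on simulated data. DESeq2 1.42.0 and limma 3.58.1 (voom) were alternatives, besides other scalings, filters, a replicate block and left-out libraries.

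The members and lists were chosen with earlier results of these data known. Named genes are the 8 members, the called genes of each list (at most 3) and its most abundant gene, Arnt and Bhlhe41, and the genes most like each member. Other genes were singled out after their values were seen. Symbols and coordinates are those of the deposited table.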

Additional observations from a re-analysis of the deposited data

Results flagged for a closer look

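In 4 cases among 18 groups of values tested, 1 library stood apart from the other 4 of its group by more than Dixon's 95% critical value of 0.71, where chance flags about 1 in 20 groups. Id3 in Tumor 5 was at 59.9 CPM, with the other Tumor libraries at 0 to 14.1 CPM (gap over range 0.764). Ahr in Tumor 4 was at 153 CPM, with the other Tumor libraries at 22.4 to 53.1 CPM (0.764). Ahr in WT 3 was at 6.10 CPM, with the other WT libraries at 15.9 to 18.2 CPM (0.811). Bhlhe40 in Tumor 4 was at 632 CPM, with the other Tumor libraries at 442 to 486 CPM (0.767).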

How the results depend on the processing

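Id2 kept its direction in every alternative run, but its call was lost by the T cell gene scaling, under the replicate block, with background subtracted, with the T cell gene scaling without WT replicates 3, 4 and 5, and in 5 of 10 fits without 1 library. Against 293 genes called higher, 47 lower and 1 of the 8 members, counts were 17, 19564 and 5 by the T cell gene scaling, 682, 969 and 3 with DESeq2, 455, 24 and 2 with limma voom, and 479, 341 and 3 with no filter. Without WT replicates 1 and 2 they were 1615, 378 and 3, and without WT replicates 3, 4 and 5 they were 696, 629 and 3. With the replicate block they were 138, 3 and 0. Same-numbered libraries did not deviate together (correlations -0.126 to 0.0381, 0 of 5 above 0.1, and 0 Tumor libraries correlated best with their own number). The correlations gave no sign of pairing by number. They cannot exclude it, because large differences in RNA of other cells between libraries enter them. Without 1 library at a time, 63 to 350 genes were called higher, 2 to 72 lower, and 0 to 2 members.

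Of the alternatives chosen after seeing the data, subtracting a background proportional to gene length gave 0, 0 and 0 calls with edgeR (734 genes at an unadjusted p below 0.05). The T cell gene scaling gave 23, 22129 and 7 without WT replicates 3, 4 and 5, and 57, 14798 and 4 without WT replicates 1 and 2. In the latter fit Id2 was the member called higher. Directions turned by the T cell gene scaling for Ahr (-1.48), Bhlhe40 (-0.88), Tcf3 (-2.62) and Tcf12 (-3.09). The same scaling without WT replicates 3, 4 and 5 gave -2.05, -1.76, -3.14 and -3.53 for these genes, and without WT replicates 1 and 2 it gave -0.89 for Ahr, -2.13 for Tcf3 and -2.70 for Tcf12. Id1 turned to 0.24 under the replicate block and 2.37 without WT replicates 1 and 2. The cause of these changes was not tested.

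The ratio difference of Id2 over Id3 was 5.63 to 7.998 and that of Ahr over Arnt 1.47 to 2.17 without 1 library at a time (exact permutation tests, adjusted p 0.0397 to 0.0794 for each). Without WT replicates 1 and 2 they were 5.45 and 2.39, and without WT replicates 3, 4 and 5 they were 9.13 and 1.28. The exact permutation tests gave adjusted p of 0.0893 to 0.238. The smallest p that this test allows rises as libraries are left out. With WT replicates 1 and 2 alone it cannot reach an adjusted p below 0.05, so the lost calls in that setting say little of the ratios. Without 1 library the test could still pass the threshold, as the adjusted p of 0.0397 shows. Both ratios lost their call in 10 alternatives and kept it in 4. At this depth genes of few reads such as Id3 in Tumor are imprecise.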
